A study of Mus musculus with 2 samples.

Results

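The cells described here are synovial macrophages with a high mean score for *Olr1*, *Pdpn* and *Rgs1*, of which a cell need not hold all 3. They were chosen from scRNA-seq counts by a fixed score. Cells with at least 500 genes, at most 10% mitochondrial UMIs (unique molecular identifiers, 1 for each captured RNA molecule), at least 10 UMIs of *C1qa*, *C1qb* and *C1qc* together and fewer than 5 UMIs of *Ccl17* and *Cd209a* together were scored for 7 sets of 3 genes, each score being the mean of the z-scores of the 3 genes. A cell was a member when its *Olr1*, *Pdpn* and *Rgs1* score was the highest of the 7 and at least 0.5. The rule gave 757 members among 7322 scored macrophages, out of 10249 cells that passed the filter and 12956 barcodes in all. The members are called *Olr1 Pdpn Rgs1* macrophages below, and the cells of the other 6 sets are named in the same way by their 3 genes.

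The cells came from the hind paws of C57BL/6 wild-type mice, 7 to 10 weeks old at the start, with arthritis. The β-glucan-trained mice (BGL library) had received 1 intraperitoneal injection of 1 mg β-glucan 7 days before arthritis was induced, and the PBS-control mice (PBS library) had received the vehicle. Both groups had therefore been through the arthritis, and no library came from a healthy joint. CD45+CD11b+ cells were sorted on day 17, with 4 mice pooled in each library and no label that ties a cell to a mouse. The series' design text and the methods give K/BxN serum transfer (K/BxN-STA) as the arthritis, whereas the sample labels describe arthritis induced by collagen antibodies and lipopolysaccharide, and both sources are given here as they stand. With 1 library per group there was no replicate, so no test was made between groups. All intervals below are 95% intervals that cover counting error only, and cells of 1 library are not replicates.

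*Olr1* encodes LOX-1, a scavenger receptor for oxidized low-density lipoprotein. *Pdpn* encodes podoplanin, a membrane glycoprotein that binds CLEC-2 on platelets and is tethered to the actin cortex through ezrin, radixin and moesin. *Rgs1* encodes a GTPase-activating protein that shortens signals from chemokine receptors and other receptors coupled to inhibitory G proteins. In macrophages, inflammatory signals reach their target genes largely through NF-κB and AP-1, a family of dimers built from Fos, Jun and Atf proteins, and the immediate-early genes that encode these factors can be transcribed within minutes of a stimulus. The same immediate-early genes can also be transcribed while tissue is digested, and here the tissue was digested at 37 °C for 45 min before sorting.

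The promoters of the 3 rule genes and of *Cxcl2*, the neutrophil chemokine given as a further marker of these cells, are shown because all 4 genes were highest in this class. Each sequence holds the 250 bases before the annotated start (GRCm39, GENCODE vM39), 5′ to 3′ on the gene's own strand, and capitals mark matches to an AP-1 motif (TGANTCA), a cyclic AMP response element (TGACGTCA), NF-κB motifs (GGGNNTTTC and GGGNNTTCC) or an E-box (CACGTG), searched on both strands. The windows are chr6:129484129-129484378 on the minus strand for *Olr1*, chr4:143026144-143026393 on the minus strand for *Pdpn*, chr1:144124981-144125230 on the minus strand for *Rgs1* and chr5:91051480-91051729 on the plus strand for *Cxcl2*.
Olr1: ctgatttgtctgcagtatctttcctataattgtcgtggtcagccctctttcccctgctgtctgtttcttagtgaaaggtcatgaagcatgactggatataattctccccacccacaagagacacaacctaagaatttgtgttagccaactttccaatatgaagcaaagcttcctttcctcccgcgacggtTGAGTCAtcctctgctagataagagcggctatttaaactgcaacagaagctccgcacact
Pdpn: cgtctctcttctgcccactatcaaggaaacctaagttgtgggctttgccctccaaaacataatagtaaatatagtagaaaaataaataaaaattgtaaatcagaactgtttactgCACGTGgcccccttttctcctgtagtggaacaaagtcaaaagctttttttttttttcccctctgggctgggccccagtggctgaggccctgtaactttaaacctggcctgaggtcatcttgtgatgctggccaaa
Rgs1: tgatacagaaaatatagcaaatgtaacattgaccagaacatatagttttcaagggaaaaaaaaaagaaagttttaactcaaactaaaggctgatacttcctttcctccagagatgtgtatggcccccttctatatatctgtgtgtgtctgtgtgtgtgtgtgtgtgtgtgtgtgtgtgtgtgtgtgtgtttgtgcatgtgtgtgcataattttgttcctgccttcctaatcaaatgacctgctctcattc
Cxcl2: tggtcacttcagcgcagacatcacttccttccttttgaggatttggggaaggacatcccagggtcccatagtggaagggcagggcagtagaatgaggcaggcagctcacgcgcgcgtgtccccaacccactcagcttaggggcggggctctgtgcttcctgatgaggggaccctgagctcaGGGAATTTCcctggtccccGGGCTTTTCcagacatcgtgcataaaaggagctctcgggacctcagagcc
The *Olr1* window held 1 AP-1 match 60 to 54 bases before the start. The *Cxcl2* window held 2 NF-κB matches, 69 to 61 and 50 to 42 bases before the start. The *Pdpn* window held 1 E-box 135 to 130 bases before the start, and these letters were not found in the *Rgs1* window. A match is a string of letters and not a measured binding site.

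With the window extended to 50 bases after the start, the rule genes and the 15 genes of highest ratio of members over the other scored macrophages, among genes with at least 50 CPM in members of both libraries, gave 18 promoters, of which 2 (11.1%) held the AP-1 motif, 2 (11.1%) the cyclic AMP response element, 3 (16.7%) an NF-κB motif and 3 (16.7%) the E-box. Among all 21416 protein-coding promoters these shares were 7.13%, 2.46%, 9.97% and 7.87%. Among the 15 genes of lowest ratio, taken from genes with at least 50 CPM in the other scored macrophages of both libraries, the numbers were 0, 0, 2 (13.3%) and 1 (6.67%). The counts are small and describe these windows only. *Dusp1* and *Fn1* held the 2 cyclic AMP response elements, and *Tnfaip3* held both an AP-1 and an NF-κB match.

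The BGL library held 482 members and the PBS library 275. Members were 11.4% (10.4 to 12.4) of 4242 scored macrophages in the BGL library and 8.93% (7.94 to 9.99) of 3080 in the PBS library, a difference of 2.43 percentage points (1.02 to 3.83). With z-scores computed within each library the difference was 1.41 percentage points and its interval, from -0.03 to 2.82, included 0. Of all cells that passed the filter, members were 8.46% (7.75 to 9.22) and 6.04% (5.37 to 6.77). Variation between mice could not be measured, because each library pools its 4 mice.

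Members were deeply sequenced. They carried 7530268 UMIs in the BGL library, with a median of 14028 UMIs and 4095 genes per cell, and 4919308 UMIs in the PBS library, with a median of 16488 UMIs and 4465 genes per cell. The other scored macrophages had medians of 13279 and 15581 UMIs per cell. The median share of mitochondrial UMIs per member was 2.80% and 3.17%. Of 7 barcodes present in both libraries, 0 were members.

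The 3 genes of the rule are given as a description, since they chose the cells. Levels are in CPM, the UMIs of a gene summed over cells, per 1000000 UMIs of those cells. *Olr1* was at 383 CPM in the members of the BGL library and 304 CPM in those of the PBS library, against 33.5 and 26.1 CPM in the other scored macrophages. *Pdpn* was at 278 and 302 CPM in members, against 50.7 and 61.0 CPM. *Rgs1* was at 659 and 741 CPM in members, against 111 and 99.4 CPM. The next highest class differed from gene to gene: for *Olr1* it was the *Vsig4 S100b Ecscr* cells (111 and 87.4 CPM), for *Pdpn* the *Cav1 Ndrg1 Tppp3* cells (95.1 and 118 CPM), and for *Rgs1* the *H2-Aa Ccr2 Ciita* cells in the BGL library (186 CPM) and the *Cav1 Ndrg1 Tppp3* cells in the PBS library (174 CPM).

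Few members carried 1 rule gene alone. All 3 rule genes were detected in 37.3% of BGL members and 37.5% of PBS members, 2 in 55.6% and 55.3%, and 1 in 7.05% and 7.27%. The gene with the highest z-score was *Olr1* in 198 BGL and 89 PBS members, *Pdpn* in 113 and 75, and *Rgs1* in 171 and 111. Shares of cells were compared after each cell was thinned to 5000 UMIs, which left out 13 BGL and 7 PBS members, 193 and 105 other scored macrophages and 96 of 273 and 51 of 218 B cells that were shallower. *Olr1* was then detected in 52.9% and 44.8% of members, against 7.71% and 6.41% of other scored macrophages and 0.565% and 0% of B cells, which should lack the gene. For *Pdpn* these shares were 56.9% and 60.1% of members, 17.5% and 19.1% of other scored macrophages and 0% and 1.80% of B cells. For *Rgs1* they were 68.4% and 73.5%, then 20.2% and 19.3%, then 5.08% and 5.39%. Whether B cells themselves express *Rgs1* was not tested. Without thinning, *Olr1* was detected in 66.6% and 63.6% of members and in 0.366% and 0.917% of B cells, whose median depth was 5447 and 5954 UMIs.

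The boundary of the class was not sharp. The median score of members was 1.21, with quartiles of 0.865 and 1.74 and a highest value of 4.64. The member nearest to the threshold scored 0.504 and the nearest cell below it 0.498. A total of 46 members scored below 0.6, 36 cells in which the *Olr1*, *Pdpn* and *Rgs1* score led scored from 0.4 to 0.5, and 639 cells reached 0.5 but had a higher score for another set. The second highest score in members was most often that of the *Cav1 Ndrg1 Tppp3* set (42.1% of members), followed by the *Gpnmb Ms4a7 Cd93* set (19.9%) and the *H2-Aa Ccr2 Ciita* set (19.3%).

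Members also stood near each other in genes that the score did not use. In 30 principal components of 2000 genes, with the 21 scored genes left out, 35.3% of the 20 nearest cells of a member were members, against 10.3% of all scored macrophages. This was 36.5% for members of the BGL library and 33.2% for those of the PBS library. The *Cav1 Ndrg1 Tppp3* cells had the next highest share, 15.2%, and the *Ednrb C4b Enpep* cells the lowest, 1.08%. These genes come from the cells that were scored, so the shares are a description.

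Genes of macrophages were present in the members. *C1qb*, a complement subunit, was at 2742 and 2819 CPM in BGL and PBS members, but the rule asked for C1q UMIs in every scored cell and so fixed its presence. *Csf1r*, the receptor for the macrophage growth factor CSF1, was not used by the rule, and was at 829 and 772 CPM in members against 1095 and 1053 CPM in the other scored macrophages. Of 12 macrophage identity genes measured, 0 were higher and 1, *Maf*, was lower in members by 0.5 on the log2 scale in both libraries. The name activated comes from the label of these cells, and no activation state was assayed. Of the 5 markers given for them, 3 are the rule genes, and the other 2, *Spp1* and *Cxcl2*, were higher in members than in the pool of other scored macrophages.

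*Spp1* and *Cxcl2* did not have the same pattern across classes. *Cxcl2* was at 279 and 291 CPM in members, above all 6 other classes in both libraries, the next being the *Cav1 Ndrg1 Tppp3* cells at 161 and 122 CPM. After thinning it was detected in 21.3% and 20.5% of members, 8.05% and 7.81% of other scored macrophages and 5.08% and 3.59% of B cells (25.9% and 30.5% of members before thinning), and 1 cell carried 7.08% and 10.6% of its UMIs. *Spp1*, which encodes the matrix protein osteopontin, was at 655 and 702 CPM in members, but at 572 and 730.3 CPM in the *Cav1 Ndrg1 Tppp3* cells and at 489 and 592 CPM in the *Gpnmb Ms4a7 Cd93* cells. The log2 ratio of members over *Cav1 Ndrg1 Tppp3* cells for *Spp1* was 0.20 (0.14 to 0.25) in the BGL library and -0.06 (-0.12 to 0.01) in the PBS library, so *Spp1* was not past the fold against that class in either.

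**Figure D1:**
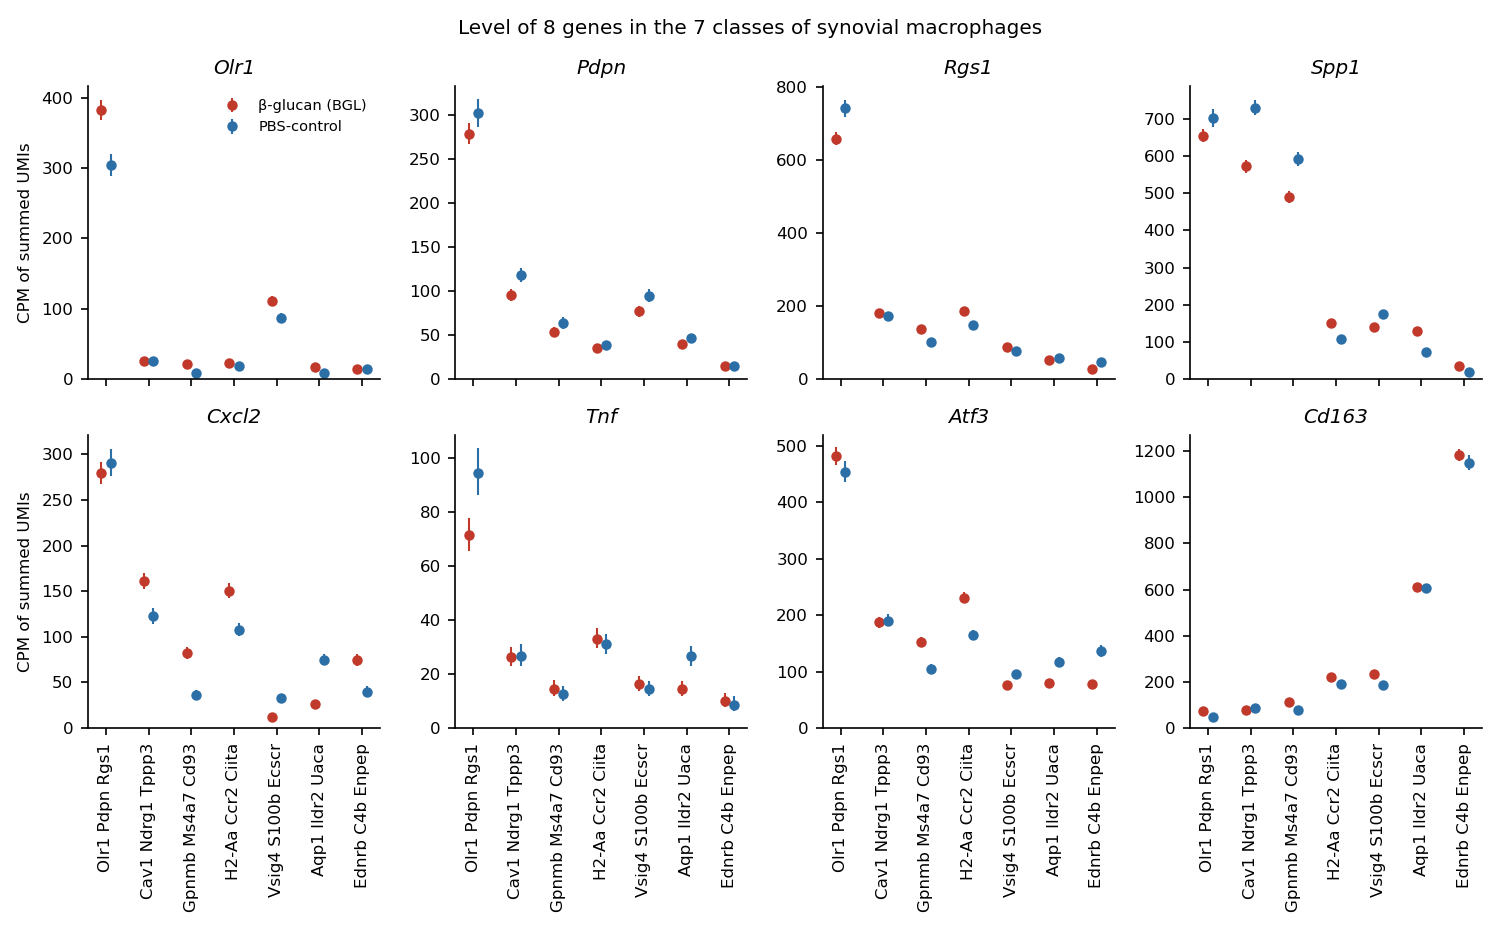
CPM of 8 genes (vertical axes) in each class of scored macrophages (horizontal axis) in the BGL and PBS libraries, with exact Poisson intervals for counting error. *Olr1*, *Pdpn* and *Rgs1* chose the members; *Cxcl2*, *Tnf* and *Atf3* were highest in members in both libraries, *Spp1* was at 572 and 730.3 CPM in the *Cav1 Ndrg1 Tppp3* cells, and *Cd163* was highest in the *Ednrb C4b Enpep* cells.

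The comparison of members with the other scored macrophages asks what else set these cells apart. Every gene of these cells counts as used by the rule, so ratios are descriptions, and a gene is called higher or lower when its log2 ratio was at least 0.5 in size with the same sign in both libraries. Of 8459 genes whose mean reached 10 CPM, 195 (2.31%) were higher in members and 279 (3.3%) lower, with a median log2 ratio of -0.05 in both libraries. With TMM scaling 249 were higher and 222 lower, so 52.9% of the called genes were higher against 41.1% without it. Inflammatory transcription factors, cytokines, matrix genes and chemokine receptors were among the higher genes, and MHC class II genes and markers of interstitial macrophages among the lower ones. The members and the gene lists were chosen with earlier results of these data known, so the list counts are read only beside these shares.

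Of 22 AP-1 and immediate-early genes, 17 passed the minimum, and 12 of these were higher and 1 lower in members, with a median log2 ratio of 0.97 in both libraries. *Atf3*, a stress-induced AP-1 factor, was at 481 and 454 CPM in BGL and PBS members against 139 and 138 CPM, log2 ratios of 1.80 (1.74 to 1.85) and 1.71 (1.64 to 1.78). *Fos* was at 1045 and 956 CPM against 392.4 and 386 CPM, log2 ratios of 1.41 (1.38 to 1.45) and 1.31 (1.26 to 1.36). After thinning, *Atf3* was detected in 60.3% and 57.1% of members, 27.4% and 31.5% of other scored macrophages and 7.34% and 1.80% of B cells (71.2% and 76.0% of members before thinning). *Jun*, at 316 and 282 CPM against 158 and 129.7 CPM, *Junb* (log2 ratios 1.13 and 0.97) and *Ier3*, an early-response survival gene (1.54 and 1.51), were also higher. *Nr4a1*, an orphan nuclear receptor outside this list, was at 141 and 170.1 CPM against 49.6 and 66.7 CPM. *Dusp1*, a phosphatase that switches off MAP kinases and overlaps another annotated gene on its strand, was at 570.2 and 687 CPM against 219.9 and 301 CPM. *Batf3*, known for its role in dendritic cells, was the lower gene (log2 ratios -1.75 and -1.07).

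The genes known to respond to tissue digestion moved with these. Of 28 such genes 27 passed, 17 were higher and 1 lower, with medians of 0.71 and 0.88. The 12 of them that are also on the AP-1 list had medians of 1.06 and 1.13, and 11 of the 12 were higher. The 15 measured genes outside the AP-1 list had medians of 0.10 and 0.31, with 6 higher and 1 lower. Of 10 AP-1 genes outside the digestion list 5 passed, with medians of 0.44 and 0.50, 1 higher and 1 lower. Of 12 measured heat shock genes 2 were higher, namely *Hspa1a* at 59.5 and 73.0 CPM (log2 ratios 0.54 and 0.90) and *Hspa1b* at 43.0 and 58.3 CPM (0.60 and 0.96), whereas *Hspa8*, the constitutive chaperone, had ratios of 0.10 and 0.06. The part of tissue digestion in the AP-1 values was not tested.

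Of 18 measured NF-κB genes and feedback inhibitors 5 were higher and 0 lower, with medians of 0.23 and 0.19. *Tnfaip3*, which encodes the inhibitor A20, was at 107 and 96.2 CPM against 36.3 and 39.6 CPM, log2 ratios of 1.55 (1.43 to 1.67) and 1.28 (1.13 to 1.43). *Cd83*, a surface marker of activated antigen-presenting cells, was at 765 and 667 CPM against 282 and 299 CPM. *Nfkbiz* (0.99 and 1.22), a nuclear regulator of NF-κB, and *Nfkbia* (1.01 and 0.78), the cytoplasmic inhibitor, were also higher. The genes of the factors themselves were not past the fold: *Nfkb1* had log2 ratios of 0.16 and 0.21 and *Rela* of 0.00 and -0.19.

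Of 10 measured cytokine genes 4 were higher and 0 lower, with medians of 0.29 and 0.70. *Tnf* was at 71.6 and 94.5 CPM in members against 19.5 and 21.1 CPM, log2 ratios of 1.88 (1.72 to 2.03) and 2.16 (2.002 to 2.32). After thinning it was detected in 18.3% and 19.4% of members, 6.14% and 7.26% of other scored macrophages and 1.13% and 2.40% of B cells. *Osm*, which encodes oncostatin M, had log2 ratios of 1.17 (0.91 to 1.44) and 1.76 (1.46 to 2.06), although 1 cell held 30.5% of its UMIs in PBS members. *Tnfsf9*, the ligand of 4-1BB (1.53 and 0.85), and *Il1rn*, the interleukin-1 receptor antagonist (0.65 and 1.27), were the other higher genes, although *Tnfsf9* had a ratio of 0.25 in the PBS library in thinned cells. *Il1b* had log2 ratios of 0.45 (0.37 to 0.54) and 0.56 (0.40 to 0.72), which ranged over the alternatives from 0.09 to 2.46 in the BGL library and from 0.20 to 1.60 in the PBS library. After thinning it was detected in 8.32% and 4.48% of members, 4.99% and 2.89% of other scored macrophages and 9.04% and 2.40% of B cells. In the BGL library the share of members (5.98 to 11.2) lay above that of other scored macrophages (4.30 to 5.76). The shares of members and B cells were within counting error of each other, so its detection in members was not told apart from background.

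Of 11 measured chemokines 4 were higher and 3 lower. The higher genes were *Cxcl2*, the monocyte chemokine gene *Ccl2*, *Ccl3* and *Ccl4*, and the lower ones *Pf4*, *Ccl8* and the eotaxin gene *Ccl24*. *Cxcl1*, like *Cxcl2* a chemokine for neutrophils, was below the minimum, at 9.03 and 13.2 CPM in members against 0.986 and 3.44 CPM. *Ccl4*, an inflammatory CC chemokine, was at 48.7 and 43.3 CPM against 17.7 and 10.4 CPM. *Ccl3*, a chemokine of the same family, was at 40.2 and 54.5 CPM against 21.5 and 13.6 CPM, but 1 cell held 49.3% of its UMIs in PBS members. *Pf4*, platelet factor 4, was at 1269 and 1151 CPM against 2751 and 2624 CPM, and *Ccl8*, which draws monocytes, at 1.33 and 1.02 CPM against 31.8 and 29.4 CPM. The chemokines therefore did not move as a group.

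Of 8 measured chemokine receptors 4 were higher and 0 lower, with medians of 0.64 and 0.60. *Ccrl2*, which binds chemerin without signalling, was at 43.8 and 28.7 CPM, log2 ratios of 1.61 and 1.38. *Ackr3*, an atypical receptor for CXCL12, was at 21.5 and 44.1 CPM against 8.64 and 19.7 CPM. *Cxcr4*, the signalling receptor for CXCL12, was at 139 and 183 CPM (log2 ratios 0.65 and 0.70). *Cx3cr1*, the fractalkine receptor, had ratios of 0.63 and 0.49. *Ackr3* was highest in the *Cav1 Ndrg1 Tppp3* cells and *Cx3cr1* in the *Vsig4 S100b Ecscr* cells in both libraries, so neither was highest in members. *Ccr2*, a gene of a competing score, had ratios of 0.42 and 0.33. Of 7 measured RGS genes 2 were higher, *Rgs1* itself and *Rgs2* (0.95 and 0.82).

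Of 13 measured genes for growth factors, proteases and matrix, 8 were higher against the pool of other scored macrophages and 1 lower, with medians of 0.60 and 0.69. Against the *Cav1 Ndrg1 Tppp3* cells alone 4 of 13 were higher and 0 lower, with medians of 0.49 and 0.15. *Fn1*, fibronectin, was among the most abundant, at 4240.2 and 4723 CPM in members against 1685 and 2122 CPM, log2 ratios of 1.33 (1.31 to 1.35) and 1.15 (1.13 to 1.17). The urokinase gene *Plau* (0.68 and 0.80) and its receptor gene *Plaur* (0.53 and 0.69) were higher as well. Both lost the call under an alternative: in thinned cells *Plau* had ratios of 0.38 and 0.27, and with doublet-like cells left out *Plaur* had a ratio of 0.41 in the BGL library. *Mmp14*, a membrane matrix metalloproteinase (0.82 and 0.65), *Thbs1*, thrombospondin (1.05 and 1.57), and the marker *Spp1* were also among the 8. *Mmp14* was highest in the *Gpnmb Ms4a7 Cd93* cells in both libraries, and *Plaur* in the *Cav1 Ndrg1 Tppp3* cells in the BGL library. *Vegfa*, the endothelial growth factor, was below the minimum, at 7.17 and 15.7 CPM in members against 2.01 and 4.74 CPM.

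Several higher genes lay outside these groups. *Rasgef1b*, an exchange factor for Ras-family GTPases, was at 671 and 584 CPM against 231 and 216 CPM. *Clec4e* encodes Mincle, a C-type lectin for microbial and damage-associated ligands, and was at 111 and 116 CPM against 41.8 and 38.5 CPM. *Lhfpl2* was at 231 and 159 CPM against 89.3 and 72.8 CPM. *Nt5e*, the ectoenzyme CD73 that makes adenosine, was at 61.9 and 60.0 CPM against 22.4 and 17.1 CPM, but was higher still in the *Cav1 Ndrg1 Tppp3* cells, at 79.7 and 66.2 CPM. Of 8 measured genes for podoplanin and its partners 3 were higher, with medians of 0.37 and 0.32. They were *Pdpn* itself, *Ezr*, ezrin (0.61 and 0.50), and *Cd44*, the hyaluronan receptor (0.52 and 0.53), while *Msn*, moesin, had ratios of 0.34 and 0.23. These were not particular to members: *Ezr*, *Cd44* and *Msn* were highest in the *Cav1 Ndrg1 Tppp3* cells in both libraries, and against that class 1 of the 8 genes was higher in members, with medians of -0.08 and -0.16. Glycolysis genes were higher for 2 of 20, *Hk2* (0.76 and 0.58) and the lactate exporter *Slc16a3* (0.58 and 0.77).

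MHC class II, which presents antigen to CD4 T cells, was lower against the pool of other scored macrophages. All 7 measured genes were lower, with medians of -1.65 and -1.28, but *H2-Aa* and *Ciita* belong to a competing score, which lowers them in members by the choice of cells. Among those that were not scored, *Cd74*, the invariant chain, was at 757 and 1488 CPM in members against 2225 and 3217 CPM. *H2-Ab1* was at 249 and 447 CPM against 780.3 and 1085 CPM. *H2-Eb1* was at 171 and 288 CPM against 611 and 862 CPM. Cells with high MHC class II were assigned to the *H2-Aa Ccr2 Ciita* class, so the other scored macrophages hold that class. Of the 7 classes, members ranked 3 in the BGL library and 2 in the PBS library for *Cd74* and *H2-Ab1*, and 3 in both for *H2-Eb1*, counted from the highest level. Against the *Cav1 Ndrg1 Tppp3* cells the list was higher in members, for 3 of 6 measured genes with 0 lower and medians of 0.45 and 0.63.

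Markers of resident interstitial macrophages were lower for 8 of 10 genes, with medians of -1.30 and -1.13. *Cd163*, the haemoglobin scavenger receptor, was at 75.6 and 47.2 CPM against 369 and 317 CPM, log2 ratios of -2.29 (-2.41 to -2.17) and -2.75 (-2.94 to -2.56). *Mrc1*, the mannose receptor, was at 513 and 454 CPM against 1441 and 1339 CPM. *Lyve1*, a hyaluronan receptor, was at 391 and 389 CPM against 838 and 795 CPM. *Gas6*, a bridge between apoptotic cells and their receptors, was at 137 and 125 CPM against 389 and 369.9 CPM. Outside this list, *Clec10a*, a C-type lectin (-2.35 and -2.86), *F13a1*, coagulation factor XIII (-1.19 and -1.52), *Plekhg5* (-2.02 and -2.42) and the growth factor receptor gene *Egfr* (-2.16 and -2.44) were lower as well. As a list the low interstitial markers were not particular to members. Against the *Cav1 Ndrg1 Tppp3* cells the medians were 0.07 and 0.15, with 2 of 9 measured genes higher and 1 lower. Against the *Gpnmb Ms4a7 Cd93* cells they were -0.30 and -0.74, with 3 of 9 higher and 4 lower. Against the *H2-Aa Ccr2 Ciita* cells they were -0.27 and -0.22, with 3 of 9 higher and 3 lower. For *Cd163* and *Mrc1*, members ranked 7 of the 7 classes in both libraries, the lowest level.

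Lining markers were mixed against the pool of other scored macrophages, with 2 of 7 measured genes higher and 2 lower and medians of 0.45 and 0.35. *F11r*, a tight junction protein, was at 239 and 212 CPM against 134 and 138 CPM, and *Tmem119* had ratios of 0.81 and 0.85. *Trem2*, a lipid-sensing receptor, was at 759 and 792 CPM, with ratios of 0.45 and 0.35. *Sparc*, a matrix-binding protein, was lower (-1.12 and -1.02), as was *Vsig4* (-1.63 and -1.34), a gene of a competing score. Monocyte markers were near even, with 1 of 6 measured genes higher (*Vcan*, 0.72 and 0.63) and 1 lower (*F13a1*). Among scavenger receptors 1 of 11 was higher and 4 were lower, and the higher gene was *Olr1*, while *Msr1* had ratios of 0.42 and 0.32, *Cd36* of -0.27 and -0.20 and *Colec12* of -1.13 and -1.11. Against the *Cav1 Ndrg1 Tppp3* cells, 4 of 7 lining genes were higher and 0 lower, with medians of 1.18 and 0.73. Against the *Gpnmb Ms4a7 Cd93* cells 2 were higher and 0 lower (medians 0.37 and 0.48). Against the *H2-Aa Ccr2 Ciita* cells 6 were higher and 1 lower (medians 0.76 and 0.72).

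**Figure D2:**
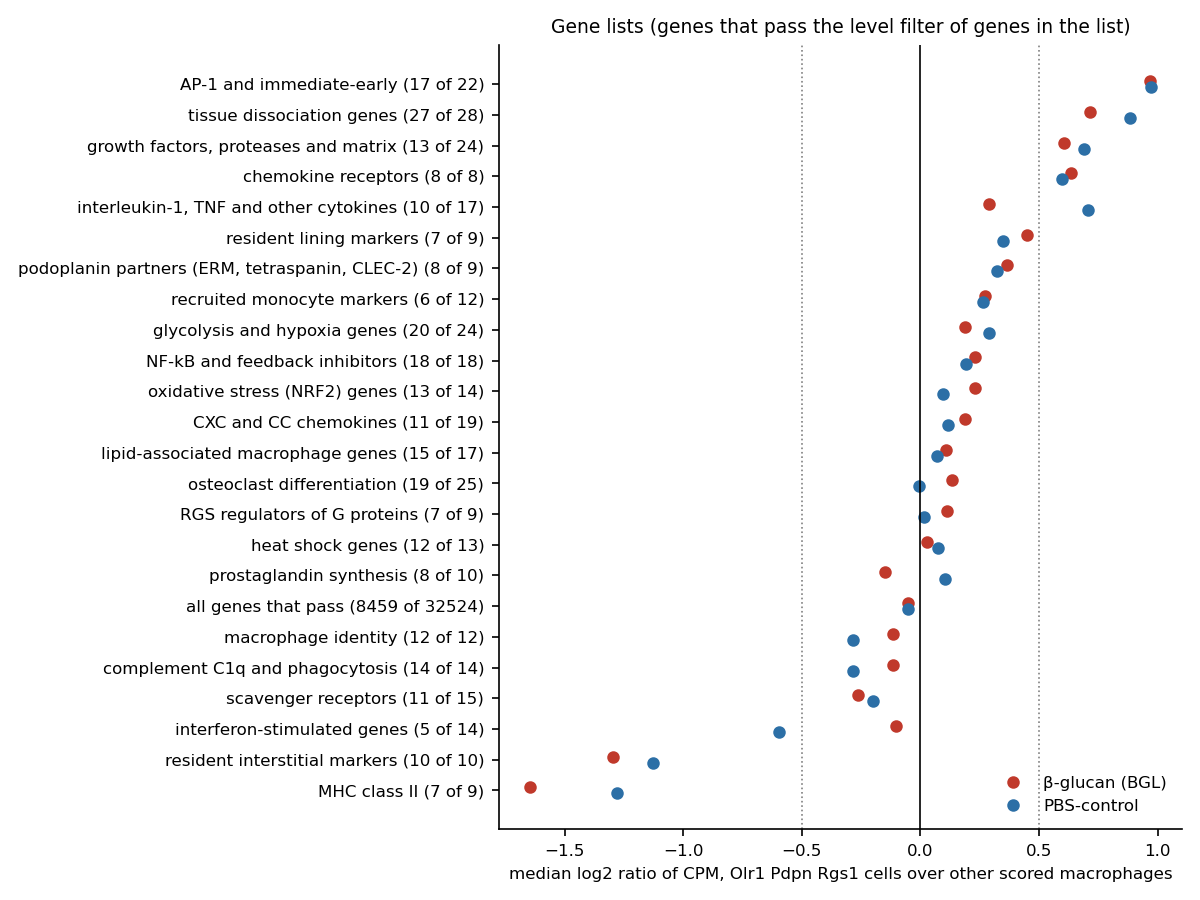
Median log2 ratio of *Olr1 Pdpn Rgs1* macrophages over the other scored macrophages (horizontal axis) for each gene list (vertical axis) in the BGL and PBS libraries, with dotted lines at -0.5 and 0.5. AP-1 and immediate-early genes stand at 0.97 in both libraries, and MHC class II at -1.65 and -1.28.

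Markers of other cell types were measured in the members because the sort admits any CD11b+ cell. The neutrophil list summed to 420 and 96.6 CPM in BGL and PBS members against 380 and 135 CPM in the other scored macrophages, led by *S100a9* in BGL members and *S100a8* in PBS members. In BGL and PBS members 1 cell carried 22.6% and 28% of it. The mast cell and basophil list summed to 3.85 and 103.7 CPM against 86.5 and 37.4 CPM, and 1 PBS member carried 89.8% of it. The B cell list summed to 90.4 and 65.7 CPM against 175 and 145 CPM. The T and NK cell list summed to 42.0 and 19.1 CPM against 32.8 and 30.3 CPM, and 1 BGL member carried 28.8% of it. The dendritic cell list summed to 16.3 and 16.5 CPM against 45.6 and 37.7 CPM, and the cycling list to 88.8 and 132 CPM against 91.9 and 137 CPM. The stromal list, which matters because *Pdpn* is also known from synovial fibroblasts, summed over its 8 genes to 234 UMIs and 123 UMIs in members, of which *Dcn* and *Prg4* were the most abundant genes in BGL and PBS members. This was 31.1 CPM in BGL members and 25.004 CPM in PBS members, below the 229 and 138 CPM of the other scored macrophages. The endothelial list of 7 genes summed to 53 UMIs and 21 UMIs in members, or 7.04 and 4.27 CPM, against 10.9 and 6.60 CPM in the other scored macrophages. *Pecam1* was its most abundant gene, at 4.65 and 3.25 CPM in members. *Cldn5* was at 0 in members of both libraries, as it was in the other scored macrophages of the PBS library.

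Members were next compared with the 3 classes that most often held their second highest score. Against the *Cav1 Ndrg1 Tppp3* cells, 216 of 8370 genes (2.58%) were higher in members and 87 (1.04%) lower. AP-1 and immediate-early genes were again higher, for 12 of 16 measured genes, with medians of 0.91 and 0.84. *Cd83* was at 255 and 254 CPM in that class, which gave log2 ratios of 1.58 (1.51 to 1.66) and 1.39 (1.31 to 1.48). *Tnf* (1.44 and 1.82), *Rasgef1b* (1.26 and 1.24) and *Cx3cr1* (1.18 and 1.14) were also higher in members. *Pf4* (-0.84 and -0.82) and the calcium-binding gene *S100a6* (-0.76 and -0.68) were lower. Glycolysis genes had medians of -0.23 and -0.19 in this comparison, the reverse of their sign against all other scored macrophages. *Cd44* too changed sign, at -0.40 and -0.39.

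Against the *Gpnmb Ms4a7 Cd93* cells, 386 of 8386 genes (4.6%) were higher and 367 (4.38%) lower. *Fn1* was at 871 and 658 CPM in that class, log2 ratios of 2.28 and 2.84. *Cxcl2* (1.77 and 3.00), *Atf3* (1.67 and 2.11), *Lyve1* (1.52 and 1.54) and *Klf2*, a quiescence-associated factor (1.55 and 1.49), were higher in members. *Apoe*, the lipid carrier apolipoprotein E, was at 13607 and 15619 CPM in that class, with ratios of -1.22 and -1.69, and *Mrc1* had ratios of -1.65 and -1.92. *Lyve1* was thus above this class and below the scored macrophages as a whole.

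Against the *H2-Aa Ccr2 Ciita* cells, 389 of 8444 genes (4.61%) were higher and 405 (4.8%) lower. *Spp1* was at 152 and 107 CPM in that class, log2 ratios of 2.11 and 2.71, and *Nt5e* at 12.0 and 6.79 CPM, ratios of 2.37 and 3.14. *Lhfpl2* (2.14 and 1.81) and *Fn1* (1.53 and 1.12) were higher in members. AP-1 and immediate-early genes were higher for 5 of 17 measured genes, with medians of 0.35 and 0.60, the smallest of the 3 comparisons. *Mrc1* was lower (-1.39 and -1.34) here too, and so were all 7 measured MHC class II genes, of which that class's score used *H2-Aa* and *Ciita*.

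Levels of several genes followed the score over all scored macrophages, members or not. From cells that scored below 0, through 0 to 0.5, 0.5 to 1 and 1 to 2, to cells at 2 or more, *Cxcl2* was at 38.6, 134, 169, 296 and 571 CPM in the BGL library and at 52.8, 100.1, 151, 239.9 and 614 CPM in the PBS library. Over the same steps *Atf3* went from 86.8 to 687 CPM and from 105 to 824 CPM. *Cd163* went the other way, from 489.7 to 30.3 CPM and from 424 to 22.3 CPM, with every step lower than the one before in both libraries. *Mrc1* went from 1756 to 276 CPM and from 1694 to 269 CPM. *Il1b* followed no such order, at 102, 161, 156, 256 and 160.1 CPM in the BGL library and 55.6, 34.4, 51.9, 113 and 20.2 CPM in the PBS library. The highest bin held 89 BGL and 53 PBS cells. For *Cxcl2*, *Atf3*, *Cd163* and *Mrc1* the bin just above the threshold of 0.5 lay between its neighbours in both libraries.

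**Figure D3:**
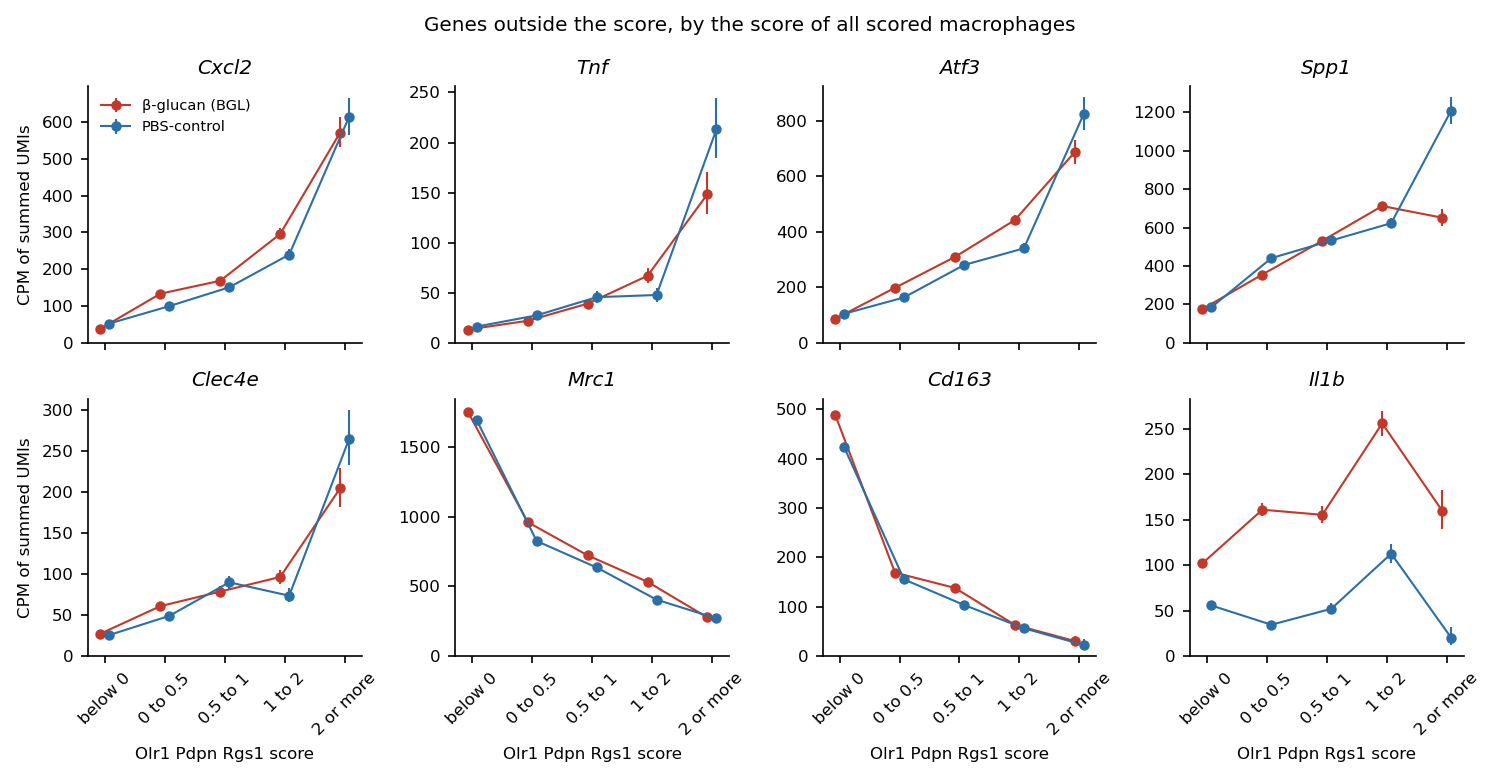
CPM of 8 genes (vertical axes) in all scored macrophages grouped by their *Olr1*, *Pdpn* and *Rgs1* score (horizontal axis) in the BGL and PBS libraries, with exact Poisson intervals for counting error. *Cxcl2* and *Atf3* rise along the score, *Cd163* and *Mrc1* fall, and *Il1b* has no steady order.

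Members led by different rule genes differed in other genes. *Fos* was at 1464 and 1245 CPM in members led by *Rgs1*, against 767 and 784 CPM in those led by *Olr1* and 893 and 706 CPM in those led by *Pdpn*. *Atf3* had the same leader, at 653 and 566 CPM in members led by *Rgs1*. *Fn1* was highest in members led by *Olr1*, at 4835 and 6179.9 CPM, against 4169 and 3738 CPM in those led by *Pdpn* and 3600.3 and 4294 CPM in those led by *Rgs1*. *Spp1* was highest in members led by *Pdpn*, at 812 and 875 CPM. These parts come from the rule's own genes and are descriptions.

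The comparison of the BGL with the PBS library asks how these cells differed after β-glucan pre-treatment. It rests on 1 library per group, so it compares those libraries, and treatment, mice and library cannot be told apart. Of 8311 genes whose mean in members reached 10 CPM, 269 (3.24%) were higher in the BGL library by 0.5 on the log2 scale and 188 (2.26%) lower. With members paired by their share of UMIs from genes that span at least 100 kb, the numbers were 224 and 232. This pairing kept 259 of 482 BGL and 259 of 275 PBS members, so it changed the number of cells as well as the share. Over all members the median share per cell was 19.8% in the BGL library and 18.6% in the PBS library, and the median ratio went from -0.08 for genes under 10 kb to 0.15 for genes of 100 kb or more, with -0.08 and 0.14 in the other scored macrophages. In the other scored macrophages, with 54765611 and 46788671 UMIs, 78 of 8578 (0.909%) were higher and 52 (0.606%) lower. Members held fewer cells and fewer UMIs (7530268 and 4919308), so counting error is larger in members and these shares are not compared. Of the 269 genes, 249 had the same sign in the other scored macrophages and 35 were past the fold there. Of the 188 genes, 157 had the same sign and 36 were past the fold. The rule genes chose the members with the same threshold in both libraries, so their likeness between libraries is partly set by the rule. Their log2 ratios of BGL over PBS were 0.33 (0.24 to 0.42) for *Olr1*, -0.12 (-0.21 to -0.02) for *Pdpn* and -0.17 (-0.23 to -0.11) for *Rgs1*. The markers outside the score differed little between the libraries, at -0.06 (-0.15 to 0.04) for *Cxcl2* and -0.10 (-0.16 to -0.04) for *Spp1*.

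Among the 10 lowest ratios of BGL over PBS in members, counting genes that reached 50 CPM in members of 1 library or both, were those of *Slc7a2* and *Retnla*, both known to be induced by interleukin-4 in macrophages. *Slc7a2*, a cationic amino acid transporter, was at 18.9 CPM in BGL members and 337 CPM in PBS members, a log2 ratio of -4.16 (-4.42 to -3.91), against -3.74 in the other scored macrophages. *Retnla* was at 87.9 and 788 CPM, a ratio of -3.16, against -1.56, but 1 cell held 61.5% of its UMIs in BGL members and another 49.6% in PBS members. *AA467197* was at 27.5 and 118 CPM, a ratio of -2.10 (-2.34 to -1.87), against -1.28 in the other scored macrophages.

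MHC class II genes were also lower, with all 6 measured genes past the fold and a median of -0.80, against -0.48 in the other scored macrophages. *Cd74* had a log2 ratio of -0.98 (-1.03 to -0.93), *H2-Ab1* of -0.84 (-0.93 to -0.75) and *H2-Eb1* of -0.76 (-0.87 to -0.65). When cells with other-cell markers or very high UMIs were left out, the median was -0.14, *H2-Ab1* -0.17 and *H2-Eb1* -0.02. In BGL and PBS members 1 cell held 9.41% and 18.1% of the *H2-Eb1* UMIs. *Fkbp5* (-0.94, 112 and 215 CPM) and *Per1* (-0.93, 34.1 and 65.0 CPM), both known to respond to glucocorticoids, were lower, as was *Nr4a2* (-1.03, 53.4 and 109 CPM). These genes had ratios of -0.70, -0.96 and -0.89 in the other scored macrophages.

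*Il1b* was higher in the BGL library, at 177 against 76.2 CPM in members, a log2 ratio of 1.22 (1.05 to 1.39), and 1.33 (1.26 to 1.40) in the other scored macrophages. As the share of members with an *Il1b* UMI was within counting error of that of B cells, these ratios are not read as expression by members, and 1 cell held 29.6% of its UMIs in PBS members. *S100a9*, an abundant neutrophil gene, was at 181 and 22.6 CPM, a ratio of 3.00, and *S100a8* at 167 and 30.3 CPM, a ratio of 2.46. The neutrophil list summed to 420 CPM in BGL members and 96.6 CPM in PBS members. With cells carrying neutrophil or mast cell UMIs left out, the ratio of *S100a9* was -0.62 (-1.83 to 0.58). As *S100a9* is itself a neutrophil gene, leaving out such cells removes its own UMIs, so no conclusion is drawn from that value. The part of free neutrophil RNA or of cells captured together in these values was not tested.

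Some genes of other functions had ratios of BGL over PBS above 0 both in members and in the other scored macrophages, though not always of the same size. *Mitf*, a transcription factor of lysosomal and osteoclast genes, was at 863 and 519.6 CPM in members, a log2 ratio of 0.73 (0.67 to 0.80), and 0.75 (0.73 to 0.78) in the other scored macrophages. *Fgd4*, an exchange factor for CDC42, was at 290.3 and 149 CPM, ratios of 0.96 and 0.87. *Nuak1*, a kinase related to AMPK, was at 51.3 and 18.7 CPM, a ratio of 1.45 (1.12 to 1.80) against 0.54 (0.44 to 0.63), and *Mef2c* was at 535 and 339 CPM, ratios of 0.66 and 0.38. *Elmo1* and *Vav3*, activators of Rac, had ratios of 0.43 and 0.23 in members, under the fold. Over the alternatives these ranged from 0.26 to 0.46 for *Elmo1* and from 0.04 to 0.27 for *Vav3*. The ranges were 0.55 to 0.76 for *Mitf* and 0.50 to 0.80 for *Mef2c*. Of 16 AP-1 and immediate-early genes measured in members, 4 had a ratio of BGL over PBS above 0, 0 were past the fold higher and 1 was past the fold lower, with a median of -0.19. *Fos* (0.13) and *Atf3* (0.09) were among the 4, while *Nr4a2*, an early-response nuclear receptor gene outside this list, had a ratio of -1.03. *Tnf* had a ratio of -0.40 (-0.58 to -0.22), but 0.26 (-0.15 to 0.68) in cells thinned to 5000 UMIs and 0.06 (-0.16 to 0.28) in members paired by long-gene UMIs, so its direction depended on the processing.

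**Figure D4:**
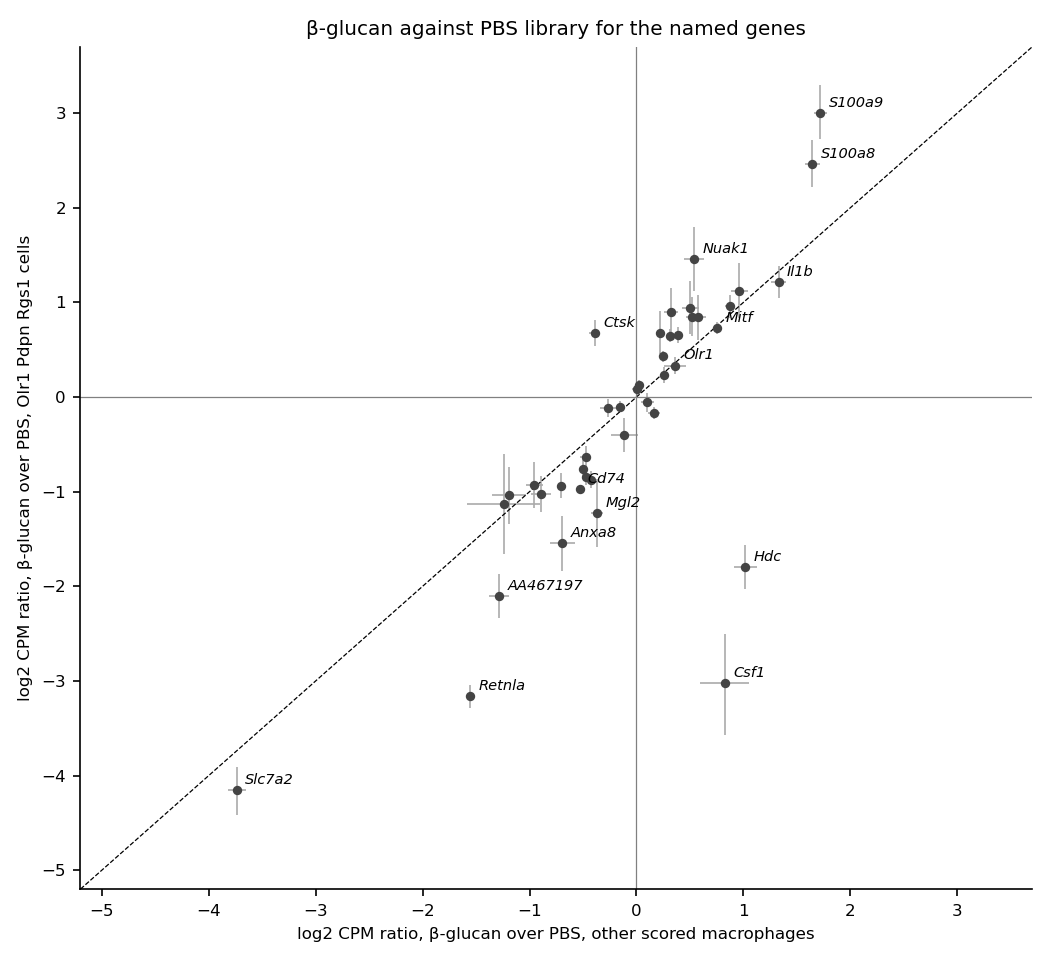
Log2 ratio of BGL over PBS in *Olr1 Pdpn Rgs1* macrophages (vertical axis) against the same ratio in the other scored macrophages (horizontal axis) for the genes named by rule. *Slc7a2* and *Retnla* are low in both, *Il1b* and *Mitf* are above 0 in both, and *Hdc* and *Csf1* have opposite signs.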

How the data were processed

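scRNA-seq libraries (Chromium 3′ chemistry) were made from sorted synovial CD45+CD11b+ cells. Per the methods, the authors aligned reads to GRCm39 with Cell Ranger 7.0.0, and the deposited values are counts, whole UMIs per gene and barcode. The label field on processing also names mm10. Barcodes were filtered at 500 genes and 10% mitochondrial UMIs. Each gene of a score was taken as log1p of UMIs per 10000 UMIs of the cell and turned into a z-score over scored macrophages of both libraries. B cells, used as a background, were cells past the filter with at least 5 UMIs of *Cd79a*, *Cd79b* and *Ms4a1* and fewer than 10 of the C1q genes. Whether B cells themselves express the genes compared, such as *Rgs1*, *Atf3* and *Tnf*, was not tested, so this background may be overstated. Doublets were not called and were kept, and leaving out doublet-like cells was an alternative. CPM values were computed from UMIs summed over cells. Ratios carry exact conditional binomial intervals, shares exact Clopper-Pearson intervals and CPM exact Poisson intervals, all at 95% and for counting error only. As the libraries have no replicates, the count test edgeR offers was not run, and edgeR 4.0.16 was used for TMM factors only. Genes needed a mean of 10 CPM over the groups compared. Gene positions and promoters came from GRCm39 and GENCODE vM39, and 31870 of 32524 gene identifiers matched.

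Named genes were the given markers, in each list the genes of highest CPM and of largest ratio, the 15 highest and 15 lowest ratios of members over other macrophages among genes with at least 50 CPM in members (highest) or other macrophages (lowest) of both libraries, the 10 highest and 10 lowest of BGL over PBS for genes that reached 50 CPM in members of 1 library or both, and genes of the study, and the values printed are those of a choice among these. *Apoe* and *S100a6* were also named in comparisons with single classes. The members and lists were chosen with earlier results of these data known. Scripts were tested on simulated data. Analyses used Python 3.11.15, NumPy 2.4.6, pandas 2.3.3, SciPy 1.17.1, scikit-learn 1.9.0 and R 4.3.3. Results for a few genes are not reported here.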

Additional observations from a re-analysis of the deposited data

Results flagged for a closer look

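Of the 269 and 188 genes past the fold between the libraries in members, 249 and 157 had the same sign in the other scored macrophages. Among the genes described here for this comparison, 3 were past the fold in members and had the opposite sign in the other scored macrophages, with neither interval including 0, and these differences were not tested. *Hdc*, histidine decarboxylase, had a log2 ratio of -1.80 in members and 1.02 in the other scored macrophages, and 1 PBS member held 58.3% of its UMIs among PBS members. *Csf1* had ratios of -3.02 and 0.82, and 1 PBS member held 87.8% of its UMIs. *Ctsk*, the protease cathepsin K, had ratios of 0.68 and -0.39, with 206 and 128 CPM in members, and had no more than 8.27% of its UMIs in 1 cell. Its ratio in members was under the fold in several alternatives, at 0.13 (-0.04 to 0.30) with doublet-like cells left out, 0.16 (-0.10 to 0.43) in thinned cells and 0.26 with equal weight per cell. The 3 measured genes of the mast cell and basophil list had a median of -4.88 in members and 1.25 in the other scored macrophages, and 1 PBS member carried 89.8% of that list's UMIs among PBS members.

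Barcodes outside the filter on genes and mitochondrial UMIs also met the rule. They were 8.44% (4.57 to 14.0) of 154 macrophage barcodes in the BGL library and 5.80% (2.54 to 11.1) of 138 in the PBS library.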

How the results depend on the processing

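No paired analysis was possible because each group is 1 library, and for the same reason no library could be left out. The share of members was 12.6% in the BGL library at a score of at least 0.25, 7.45% and 5.91% in the BGL and PBS libraries at a score of at least 1, and 8.89% and 6.95% with a margin of 0.25 over the next score. The difference in share was 1.41 percentage points with z-scores within each library. Genes higher and lower in members numbered 112 and 93 at a minimum of 50 CPM, and 223 and 430 at 5 CPM. Genes higher and lower with BGL in members numbered 542 and 468 in cells thinned to 5000 UMIs, 454 and 297 with doublet-like cells left out, 443 and 326 at a minimum of 5 CPM and 73 and 48 at 50 CPM. Members paired by long-gene UMIs, which keeps fewer cells, gave 224 and 232. Among ratios past the fold, that of BGL over PBS changed sign for *Cd163* in thinned cells, at -0.21 (-0.62 to 0.20). With doublet-like cells left out, that of *S100a9* changed to -1.38 (-3.34 to 0.42). Leaving out cells with neutrophil or mast cell UMIs was an alternative chosen after seeing the data. It gave -0.62 (-1.83 to 0.58) for *S100a9*, itself a neutrophil gene, and 1.48 (-0.84 to 4.76) for *Hdc*. All of these intervals included 0, so the sign after the change was not settled, and the causes were not tested. *Hdc* gave no value with doublet-like cells left out. Smaller ratios of BGL over PBS, under the fold, also changed sign under some alternative, with ranges of -0.58 to 0.26 for *Tnf*, -0.47 to 0.08 for *Rgs1*, -0.26 to 0.06 for *Spp1*, -0.18 to 0.20 for *Atf3* and -0.35 to 0.18 for *Cxcl2*. The median of the AP-1 list was 0.001 at a score of at least 1. Calls of members over other macrophages near the fold that were lost under some alternative included *Ezr*, *Cd44*, *Cxcr4*, *Hspa1a*, *Hspa1b*, *Mmp14* and *Vcan*. The other gene ratios and list medians were counted once for each alternative. Of these values, 977 of BGL over PBS stayed within their counting interval (list medians within 0.25) and 174 did not. For members over other macrophages these numbers were 3074 and 702, and 0 values past the fold changed sign. The share of members among the 20 nearest cells was 36.3% with 10 cells, 33.3% with 50 and 34.5% with 15 components.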
